A study of Mus musculus with 18 samples.

Results

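Cd79a, Cd79b, Cr2, Cd22, Blk, Btk, Rasgrp3, Pax5 and Ms4a1 encode the signaling chains of the B cell receptor, its coreceptors and kinases, and markers of B cell identity. These 9 genes, named as a list, were followed among the 49585 genes of a mouse RNA-Seq count table. All 9 passed the filter on low counts in both fits used below. Of these, Cd79a, Cd79b, Cr2, Cd22 and Rasgrp3 were also picked by the study from these libraries. They are not independent evidence of the direction they show between joint and skin, or between migrated and nonmigrated cells of the joint.

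The table held 18 libraries in 6 groups of 3, each library made from viable CD45+ leukocytes sorted from young adult Kaede-transgenic mice, which were pooled from both sexes for the 4 inflamed groups. Kaede is a photoconvertible protein that turns from green to red under violet light, so that cells exposed in a tissue can be found later in its draining lymph node. Mice given in vitro–polarized OT-II Th1 cells were immunized with ovalbumin in complete Freund's adjuvant, and 10 days later 100 μg of heat-aggregated ovalbumin was injected into the footpad (joint) or the ear pinna (skin). Red cells still in the tissue were named joint nonmigrated and skin nonmigrated, and red cells recovered from the draining node were named joint migrated and skin migrated. The other groups, labeled as cells migrated from joint or ear to the node without the word inflamed, are called steady state here. They came from the joint-draining node (titles marked PBS and KG) and the skin-draining node (titles marked naive). In the paper's methods, PBS is the injection given in place of heat-aggregated ovalbumin. Whether the mice of these groups received Th1 cells and immunization is not stated for these libraries. KG is not spelled out and may stand for Kaede green, that is, for cells that were not converted. The titles of the inflamed skin groups carry KR instead. The labels do not settle whether the cells of these steady-state groups carried converted Kaede. A whole-tissue exposure converts every cell type present, so that red cells in a node are a mixture and are not B cells alone. The paper reports a slight rise of red cells in the joint-draining node right after the joint was exposed. Red node cells may therefore include cells converted in the node itself, and their part in the levels was not tested.

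The B cell receptor is a membrane immunoglobulin held together with the CD79a and CD79b chains, whose cytoplasmic tails carry the signal. Src-family kinases such as BLK phosphorylate these tails, BTK passes the signal to phospholipase C, and RASGRP3 links the resulting diacylglycerol to Ras. CR2 (CD21) lowers the threshold for activation by binding complement-coated antigen, whereas CD22 recruits phosphatases that dampen the signal. PAX5 is the transcription factor that keeps cells committed to the B lineage from the pro-B stage until plasma cell differentiation, and MS4A1 (CD20) is a surface protein of B cells that plasma cells lose.

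In the GRCm38 (mm10) annotation, Cd79a lay on chr7:24897381-24902197 and Cd22 on chr7:30865402-30880342, Cr2 on chr1:195136811-195176716, Pax5 on chr4:44524757-44710487 and Cd79b on chr11:106311341-106314762. Blk lay on chr14:63372836-63417037, Rasgrp3 on chr17:75435896-75529054, Ms4a1 on chr19:11249675-11266241 and Btk on chrX:134542336-134583570. Exons of Cd22 share 479 bases with the antisense gene Gm29439, and exons of Pax5 share 125 bases with Gm12462 and 636 bases with 5730488B01Rik on the opposite strand. Reads from these stretches cannot be told apart without strand information. The other 7 genes share no exonic base with another annotated gene.

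RefSeq promoters (250 bases before to 50 bases after a gene start, GRCm38.p6) were found for Cd79a, Cr2, Cd22, Btk, Rasgrp3 and Pax5, and were read because most of these genes moved together whereas Btk did not. Both strands were searched for the letters of 4 motifs. A palindromic EBF1 half-site pair (TCCC, any 2 bases, GGGA) was held by 0.904% of 32851 mouse promoters, the octamer ATGCAAAT by 1.74%, the PU.1 motif GAGGAAGT by 3.2% and the E-box CACGTG by 7.15%. The EBF1 letters occurred in the Cd22 promoter, starting at position -49 from the gene start, and the PU.1 letters occurred at -50 in the first of the 2 Rasgrp3 promoters. The Cd79a, Cr2, Pax5 and Btk windows held none of these letters. Only these exact letters were searched for, so a window without them may still hold a site for the same factor that is spelled otherwise. The Cd22 promoter (chr7:30878979-30879278, minus strand, at a start inside the annotated gene) is shown with the EBF1 letters in capitals, beside Cd79a (chr7:24897247-24897546, plus strand) as a gene that rose with it and Btk (chrX:134583091-134583390, minus strand) as the one that fell with migration, each 5′ to 3′.
Cd22: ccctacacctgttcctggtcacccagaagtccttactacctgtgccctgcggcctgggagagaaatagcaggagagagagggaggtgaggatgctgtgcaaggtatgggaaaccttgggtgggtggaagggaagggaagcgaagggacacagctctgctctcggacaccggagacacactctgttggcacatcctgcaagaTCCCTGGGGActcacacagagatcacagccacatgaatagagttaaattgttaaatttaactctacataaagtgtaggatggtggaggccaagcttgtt
Cd79a: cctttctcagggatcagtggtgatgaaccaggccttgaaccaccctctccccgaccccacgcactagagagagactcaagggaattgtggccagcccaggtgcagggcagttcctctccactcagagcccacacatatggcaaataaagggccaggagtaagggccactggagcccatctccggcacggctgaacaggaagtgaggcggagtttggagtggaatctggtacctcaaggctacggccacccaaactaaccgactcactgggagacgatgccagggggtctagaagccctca
Btk: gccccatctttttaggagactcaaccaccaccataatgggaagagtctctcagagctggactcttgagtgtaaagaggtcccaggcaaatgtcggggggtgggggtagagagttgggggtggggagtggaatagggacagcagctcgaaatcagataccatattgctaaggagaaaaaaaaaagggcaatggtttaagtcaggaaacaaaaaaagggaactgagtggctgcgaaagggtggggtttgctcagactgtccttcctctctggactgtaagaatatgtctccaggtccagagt

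Levels are CPM (each count divided by its library total, times a fixed scale) on a library size scaled by the TMM method. Assigned counts per library ran from 19239531 to 22528895 in the inflamed skin groups and from 28577566 to 43814403 in the others, so that 3 counts, taken as the floor, equaled 0.0616 to 0.18 CPM. Reads outside any gene made up 0.0925 to 0.135% in the inflamed skin groups and 0.227 to 0.562% in the others, and the column names also took another form. Where inflamed skin cells are compared with joint cells or the skin node, the difference cannot be told apart from this set of libraries. Ptprc, which encodes CD45, was at 1156 to 2531 CPM in all 18 libraries. The nonmigrated groups were rich in myeloid transcripts, with a summed monocyte and macrophage list (6 genes, Lyz2 among them) of 15835 to 19217 CPM in joint and 2932 to 9451 CPM in skin, against 138 to 499.6 CPM in the migrated groups. The dendritic cell list (6 genes) reached 2418 to 6650.4 CPM in the migrated groups and 480.3 to 786 CPM in the steady-state nodes. A level in such mixed cells cannot tell fewer B cells from less RNA per B cell. By flow cytometry, the paper reports larger shares of T and B cells among red cells migrated from joint than among those left there. Neutrophils and monocytes had the larger shares among the cells left in joint.

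**Figure D1:**
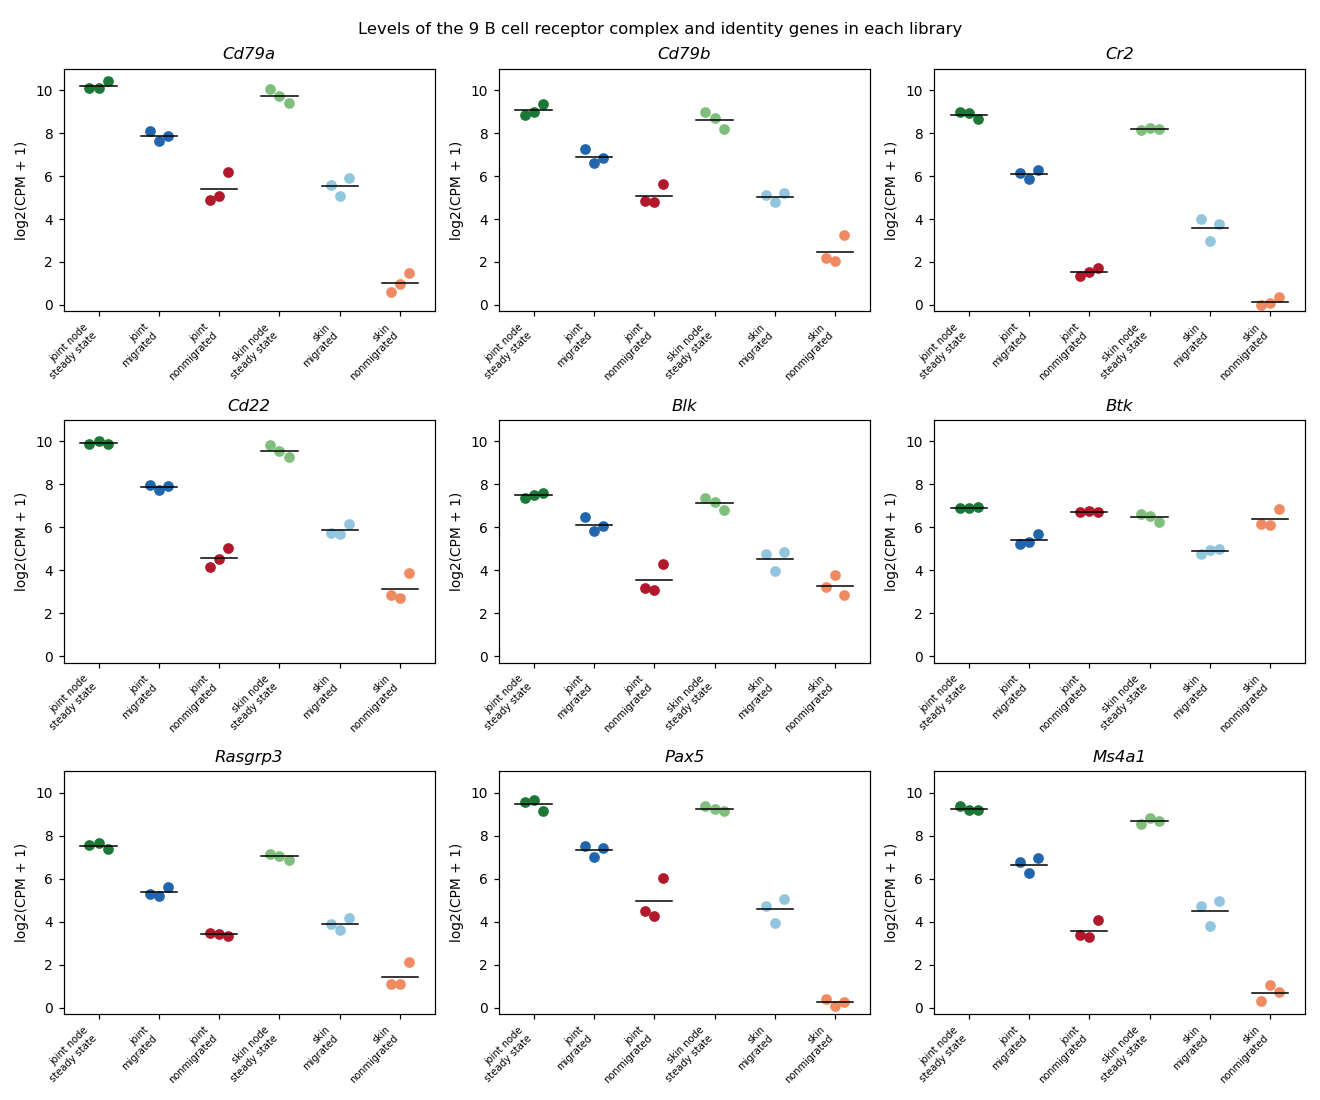
Level of each gene in each library, as log2(CPM + 1) on the y axis, with the 6 groups on the x axis, 1 point per library and a bar at the mean of the 3. All genes but Btk were highest in the steady-state nodes, lower in migrated cells and lowest in skin nonmigrated cells, whereas Btk was lowest in migrated cells, and its nonmigrated levels lay near those of the nodes.

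The signaling chains Cd79a and Cd79b marked the overall order of the groups. Cd79a was at 1090.1, 1099 and 1387 CPM in the joint node at steady state and at 1050.2, 832 and 672 CPM in the skin node. In joint migrated cells it was at 271, 199.6 and 234 CPM, and in skin migrated cells at 47.3, 33.0 and 59.3 CPM. Joint nonmigrated cells, at 28.7, 32.4 and 71.6 CPM, overlapped with skin migrated cells, and skin nonmigrated cells were the lowest at 0.54, 0.994 and 1.82 CPM, from 9, 17 and 35 counts. Cd79b followed the same order of the extremes, from 456, 504 and 657 CPM in the joint node at steady state down to 3.48, 3.16 and 8.47 CPM in skin nonmigrated cells. Between these lay the skin node at 499.6, 419 and 290.1 CPM, joint migrated cells at 151, 97.6 and 115 CPM, joint nonmigrated cells at 27.3, 26.8 and 49.0 CPM and skin migrated cells at 33.9, 26.6 and 36.2 CPM. Only the steady-state pair and the pair of joint nonmigrated and skin migrated cells overlapped between neighbors in that order.

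The complement receptor gene Cr2 was lower at each step from the nodes to the tissues. It was at 507, 487 and 404 CPM in the joint node at steady state, 281, 300.4 and 289 CPM in the skin node, 69.2, 58.1 and 77.4 CPM in joint migrated cells and 14.9, 6.99 and 12.6 CPM in skin migrated cells. Joint nonmigrated cells held 1.56, 1.89 and 2.35 CPM. In skin nonmigrated cells 0, 1 and 6 counts were found, so that 1 of 3 libraries exceeded the floor. No group overlapped with the next in this order. Cd22, the inhibitory coreceptor, was also separated at every step, with 952, 1045 and 935 CPM and 914, 761 and 621 CPM in the joint and skin nodes at steady state, 246, 215 and 240.3 CPM in joint migrated cells and 51.9, 50.1 and 70.9 CPM in skin migrated cells. It fell to 16.8, 22.2 and 31.7 CPM in joint nonmigrated and 6.24, 5.61 and 13.7 CPM in skin nonmigrated cells.

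The kinase genes departed from this order. Blk was at 162, 181 and 196 CPM in the joint node and 164, 146 and 110.3 CPM in the skin node at steady state, 86.8, 55.7 and 66.8 CPM in joint migrated and 26.0, 14.7 and 27.9 CPM in skin migrated cells. Joint nonmigrated (8.10, 7.51 and 18.7 CPM) and skin nonmigrated cells (8.34, 12.7 and 6.24 CPM) overlapped, although Cd79a was more than an order of magnitude apart between them. Blk is also known from a subset of γδ T cells, and Trdc, the constant region gene of the T cell receptor delta chain, was at 153, 155 and 50.7 CPM in skin nonmigrated against 9.63, 14.6 and 17.7 CPM in joint nonmigrated cells. In migrated cells Trdc was at 159, 95.6 and 78.4 CPM in joint and 94.3, 89.0 and 117 CPM in skin, so its level was not particular to skin nonmigrated cells. Trdc was chosen after its values were seen, and its part in the Blk level was not tested. Btk, which myeloid cells also use, was at 102, 107 and 105 CPM in joint nonmigrated cells, between the joint node (118, 118 and 123 CPM) and the skin node (98.7, 92.5 and 75.8 CPM) at steady state. Skin nonmigrated cells, at 70.9, 68.9 and 114 CPM, overlapped with the skin node. The migrated groups were the lowest, at 36.2, 38.5 and 49.7 CPM in joint and 26.4, 29.7 and 30.8 CPM in skin.

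Rasgrp3 was at 188, 200.0 and 167 CPM and 142, 133 and 115 CPM in the joint and skin nodes at steady state, 37.6, 36.0 and 47.1 CPM in joint migrated and 13.8, 11.3 and 16.8 CPM in skin migrated cells. It was steady across joint nonmigrated libraries at 10.2, 9.60 and 9.08 CPM and lowest in skin nonmigrated cells at 1.14, 1.11 and 3.33 CPM. Each group lay apart from the next.

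The identity genes were lowest in skin nonmigrated cells. Pax5 was at 748, 806 and 562 CPM and 657, 594 and 556 CPM in the joint and skin nodes at steady state, 180.1, 127 and 172 CPM in joint migrated and 25.7, 14.3 and 32.6 CPM in skin migrated cells. Joint nonmigrated cells held 21.7, 18.4 and 64.8 CPM, overlapping with skin migrated cells, and skin nonmigrated cells held 5, 1 and 4 counts. Ms4a1 was at 658, 582 and 580.3 CPM and 369, 444 and 413 CPM in the nodes, 108, 74.4 and 121 CPM in joint migrated and 25.2, 12.8 and 29.7 CPM in skin migrated cells. In the tissues it was at 9.25, 8.81 and 15.7 CPM in joint and 0.24, 1.05 and 0.624 CPM in skin. Its joint nonmigrated and skin migrated libraries overlapped.

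Per kilobase of exon, the scale on which genes can be compared with each other, Cd79a was the highest of the 9 in the joint node at steady state, at a mean of 818 ± 116 CPM per kb (SD, n = 3). Cd79b stood at 377 ± 73.4, Cd22 at 194 ± 11.7, Ms4a1 at 98.1 ± 7.20, Pax5 at 79.7 ± 14.4 and Blk at 66.5 ± 6.21 CPM per kb in the same libraries. The lowest were Cr2 (57.5 ± 6.72), Btk (38.0 ± 0.975) and Rasgrp3 (31.7 ± 2.86 CPM per kb).

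Migrated cells were compared with nonmigrated cells at each site, the comparison behind the question of which cells leave an inflamed tissue. All genes but Btk were higher in migrated cells at both sites, and Btk was lower at both, with no overlap of the libraries for any of them. In joint, Cr2 rose by 5.14 on the log2 scale (SE 0.38, adjusted p = 1.2e-06), Cd22 by 3.31 (SE 0.33), Ms4a1 by 3.17 (SE 0.38), Blk by 2.61 (SE 0.39), Cd79a by 2.41 (SE 0.37), Pax5 by 2.19 (SE 0.44, adjusted p = 0.00139), Rasgrp3 by 2.06 (SE 0.31) and Cd79b by 1.82 (SE 0.34). Btk had a log2 fold change of -1.33 (SE 0.18, adjusted p = 9.47e-05). That made 8 genes higher and 1 lower, where 16.0% of the 16777 genes tested were called higher and 18.4% lower. Of the 8, Cd79a, Cd79b, Cr2, Cd22 and Rasgrp3 were picked by the study as higher in joint migrated cells. These genes are not independent evidence of the rise. Tests were edgeR quasi-likelihood F tests with Benjamini-Hochberg adjustment over all genes, and calls needed an adjusted p under 0.05 and a log2 change of more than 1 in size.

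In skin these 8 genes were higher in migrated cells as well. Pax5 rose by 6.97 on the log2 scale (SE 0.73, adjusted p = 1.19e-05), Cr2 by 6.41 (SE 0.53), Cd79a by 5.35 (SE 0.47), Ms4a1 by 5.13 (SE 0.48), Rasgrp3 by 2.89 (SE 0.35), Cd22 by 2.75 (SE 0.33), Cd79b by 2.66 (SE 0.37) and Blk by 1.33 (SE 0.39, adjusted p = 0.0124). Btk had a log2 fold change of -1.55 (SE 0.19, adjusted p = 3.61e-05). Again 8 were higher and 1 lower, against 15.7% and 19.7% of all genes tested. One library set part of these sizes: without skin nonmigrated replicate 3, which had the most monocyte and macrophage transcripts of its group, the log2 fold change was 3.28 for Cd79b and 3.63 for Rasgrp3, and Cr2 was left with 0 and 1 counts in the group, so that no size can be given for it. In that library the monocyte and macrophage list summed to 9451 CPM and the T cell list to 342 CPM, against 2932 to 3929 and 854 to 964 CPM in the other 2, and the part of these cells in the values was not tested.

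**Figure D2:**
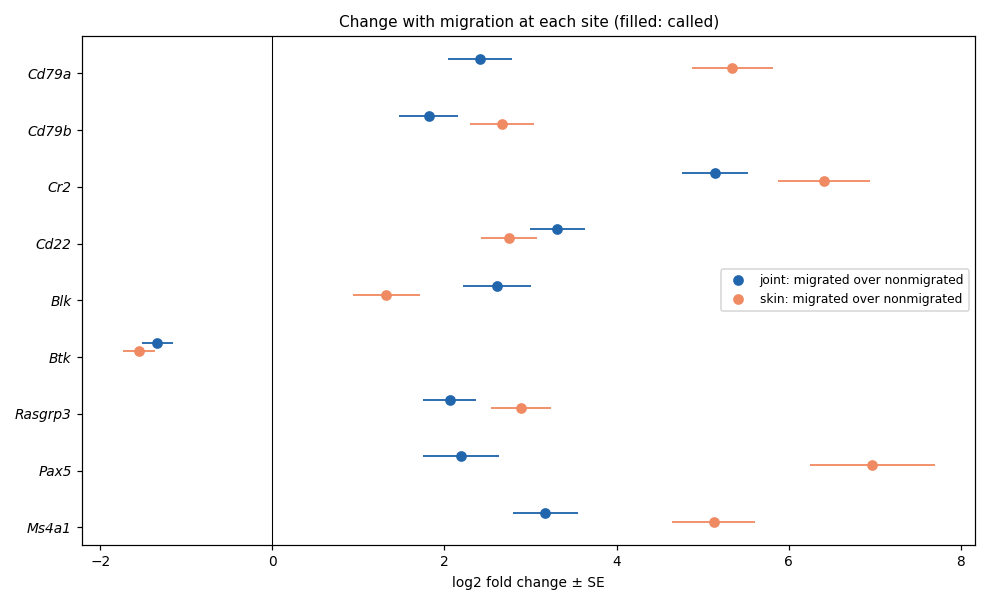
The x axis gives the log2 fold change of migrated over nonmigrated cells with its SE, for each gene (y axis) in joint and in skin; filled points passed the threshold. Btk is the one gene to the left of 0 at both sites, and Pax5 and Cd79a show the widest gap between the sites.

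The difference between these changes was tested directly. The rise was smaller in joint than in skin for Pax5, by -4.78 on the log2 scale (SE 0.90, adjusted p = 0.0101), and for Cd79a, by -2.93 (SE 0.58, adjusted p = 0.0126), so that 2 of 9 genes were called lower where 2.17% of all genes were called lower and 3.96% higher. For Ms4a1 the difference was -1.96 (SE 0.60, adjusted p = 0.0683) and for Blk 1.28 (SE 0.54, adjusted p = 0.159). The remaining genes had intervals of the difference that included 0, from -2.72 to 0.19 for Cr2 and from -0.29 to 0.72 for Btk. Leaving out joint nonmigrated replicate 3 gave -3.98 for Pax5 (adjusted p = 0.00685), and leaving out skin nonmigrated replicate 3 raised the count from 2 to 4. Calls among all genes rose with it, from 665 higher and 364 lower of 16777 to 1504 and 1106 of 17931.

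Joint nonmigrated cells differed from skin nonmigrated cells in most of the list. Pax5 was higher in joint by 7.50 on the log2 scale (SE 0.72, adjusted p = 7.96e-05), Cd79a by 5.27 (SE 0.47), Ms4a1 by 4.12 (SE 0.48), Cr2 by 3.83 (SE 0.59), Cd79b by 2.76 (SE 0.37), Rasgrp3 by 2.35 (SE 0.34) and Cd22 by 1.46 (SE 0.32, adjusted p = 0.00654). The Blk difference was 0.33, with a 95% interval from -0.43 to 1.09, and the Btk difference was 0.31, from -0.05 to 0.66, and neither passed the test. These 7 of 9 called higher compare with 5.45% of all genes called higher and 8.86% lower. Without skin nonmigrated replicate 3, Cd79b differed by 3.37 and Rasgrp3 by 3.09, and without joint nonmigrated replicate 3, Pax5 differed by 6.70 and the Blk difference changed sign to -0.22 (adjusted p = 0.659). Other cell types moved between these groups as well. In joint, 4 of 6 neutrophil genes were higher, with sums of 7043 to 22222 against 1562 to 2604 CPM. The T cell list was lower in 6 of 7 genes, at 184 to 362 against 342 to 964 CPM, and the dendritic cell list in 5 of 6, at 269.8 to 413 against 596 to 1791 CPM. Of 7 B cell precursor genes 6 were higher, and the part of these cells in the 7 calls was not tested.

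Joint migrated cells were also above skin migrated cells, where few other genes differed. Pax5 was higher by 2.72 on the log2 scale (SE 0.46, adjusted p = 0.0157), Cr2 by 2.57 (SE 0.33, adjusted p = 0.0052), Cd79a by 2.34 (SE 0.37), Ms4a1 by 2.17 (SE 0.36), Cd22 by 2.02 (SE 0.31), Cd79b by 1.91 (SE 0.34) and Rasgrp3 by 1.53 (SE 0.31, adjusted p = 0.0305). Blk missed the threshold at 1.61 (SE 0.38, adjusted p = 0.0591), as did Btk at 0.52 (SE 0.18, adjusted p = 0.18), although the libraries of the 2 groups did not overlap for any of the 9. Called higher were 7 of 9 genes, against 0.56% of all genes higher and 0.578% lower. The call was close to its threshold: leaving out any 1 of the 6 libraries left 1 to 5 genes called, 1 without skin migrated replicate 1 and 3 without joint migrated replicate 1 or 3, with log2 fold changes that stayed between 1.42 and 3.04 for the 7. Calls among all genes fell in the same refits, from 94 higher to between 21 and 42. An adjusted p under 0.001, the stricter of the thresholds tried, left 0 of 9, and it also left 0 of all 16777 genes higher and 0 lower. All 9 had an unadjusted p under 0.05. The DESeq2 Wald test at 0.05 called 8, where it called 249 of 16763 genes higher, against 94 of 16777 in edgeR. The T cell list summed to 1581 to 2202 CPM in joint migrated and 1785 to 1878 CPM in skin migrated cells, and the dendritic cell list to 2418 to 6260.3 CPM and 4655 to 6650.4 CPM, whereas the edgeR test called 2 of 6 neutrophil genes (sums of 41.3 to 95.9 against 13.8 to 25.6 CPM) and 2 of 5 plasmacytoid dendritic cell genes (117 to 179.6 against 114 to 156 CPM) higher in joint. The mast cell and basophil list summed to 25.4 to 180.2 CPM in joint and 18.4 to 23.0 CPM in skin migrated cells. The part of these cells in the differences was not tested, and the site cannot be told apart from the set of libraries.

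**Figure D3:**
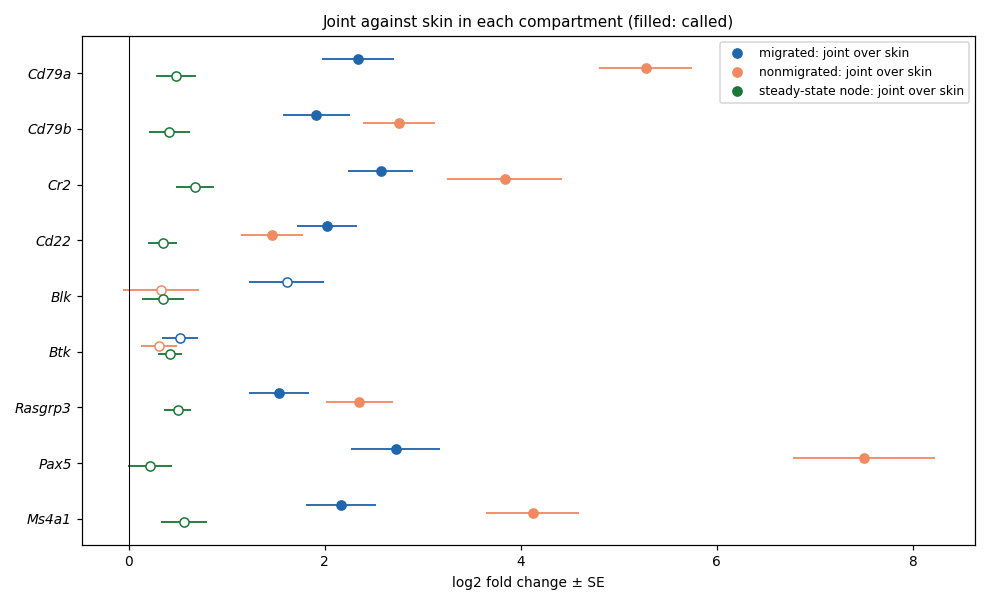
The x axis gives the log2 fold change of joint over skin with its SE for each gene (y axis), in migrated cells, nonmigrated cells and steady-state nodes; filled points passed the threshold. The steady-state points lie between 0.22 and 0.68, left of the migrated points for every gene.

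Migrated cells were compared with the node of the same site at steady state to ask how they differ from the cells of a node at steady state. All 9 genes were lower in migrated cells at both sites without overlap, Btk included. In joint the log2 fold changes ran from -1.33 for Blk (SE 0.22, adjusted p = 0.000207) and -1.50 for Btk (SE 0.13) to -2.55 for Ms4a1 (SE 0.25) and -2.74 for Cr2 (SE 0.20, adjusted p = 1.71e-07), where 7.31% of the 17107 genes tested were lower and 16.9% higher. In skin they ran from -1.59 for Btk (SE 0.13, adjusted p = 1.91e-07) and -2.58 for Blk (SE 0.23) to -4.60 for Pax5 (SE 0.27) and -4.62 for Cr2 (SE 0.23, adjusted p = 2.6e-09), where 15.0% of all genes were lower and 21.5% higher. The dendritic cell list moved the other way, with 5 of 6 genes higher in joint and 6 of 6 in skin, and its part in these falls was not tested.

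The fall was smaller in joint than in skin for 8 of 9 genes in the test of the difference. The difference on the log2 scale was 2.50 for Pax5 (SE 0.33, adjusted p = 0.000537), 1.88 for Cr2 (SE 0.28), 1.85 for Cd79a (SE 0.30), 1.67 for Cd22 (SE 0.22, adjusted p = 0.000435), 1.59 for Ms4a1 (SE 0.34), 1.49 for Cd79b (SE 0.30), 1.25 for Blk (SE 0.31) and 1.02 for Rasgrp3 (SE 0.20). Btk, at 0.09, had a 95% interval from -0.25 to 0.43. Of all genes, 2.33% were called higher and 3.78% lower in this test. The titles mark the joint node at steady state as PBS and KG and the skin node as naive. The site therefore cannot be told apart from this treatment of the baseline or from what KG stands for. A fit of all 18 libraries together called 5 of 9, with adjusted p values of 0.0597 for Cd79b, 0.123 for Blk and 0.0755 for Rasgrp3. Calls among all genes fell in that fit as well, from 399 higher of 17107 to 187 of 18156.

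The 2 steady-state nodes, by contrast, were not separated by any of the 9 at this threshold. Joint over skin, the log2 fold change ran from 0.22 for Pax5 (95% interval -0.23 to 0.66) to 0.68 for Cr2 (0.30 to 1.05, adjusted p = 0.0464), with Rasgrp3 at 0.50 (adjusted p = 0.0404). The edgeR test and the DESeq2 Wald test each called 0 of 9, because no change exceeded 1, whereas 6 of 9 had an unadjusted p under 0.05. Among all genes 3.23% were called higher and 0.655% lower. All 6 neutrophil genes and all 6 monocyte and macrophage genes were higher in the joint node, with the neutrophil list at 509.8 to 950.1 CPM against 12 to 20.4 CPM, so that the joint libraries at steady state held more myeloid transcripts than those of the skin node.

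Set against Cd79a within each library, the genes were not in fixed proportion. Cr2 amounted to 3.28, 5.44 and 5.85% of Cd79a CPM in the joint nonmigrated libraries in order of size, but 25.5 to 33.0% in joint migrated and 26.7 to 46.6% in the steady-state libraries. Ms4a1 stood at 21.9 to 32.3% in joint nonmigrated and 37.3 to 51.8% in joint migrated cells. Pax5, at 57.0 to 90.5% and 63.5 to 73.5%, overlapped between these groups. Pax5 was 13.9, 9.74 and 27.6 times the Cr2 level in the joint nonmigrated libraries and 2.60, 2.18 and 2.23 times in joint migrated cells. Blk stood at 14.1 to 17.5% of Cd79a in the nodes at steady state and at 44.7 to 54.9% in skin migrated cells, without overlap. Skin nonmigrated cells had too few Cd79a counts for such a ratio.

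**Figure D4:**
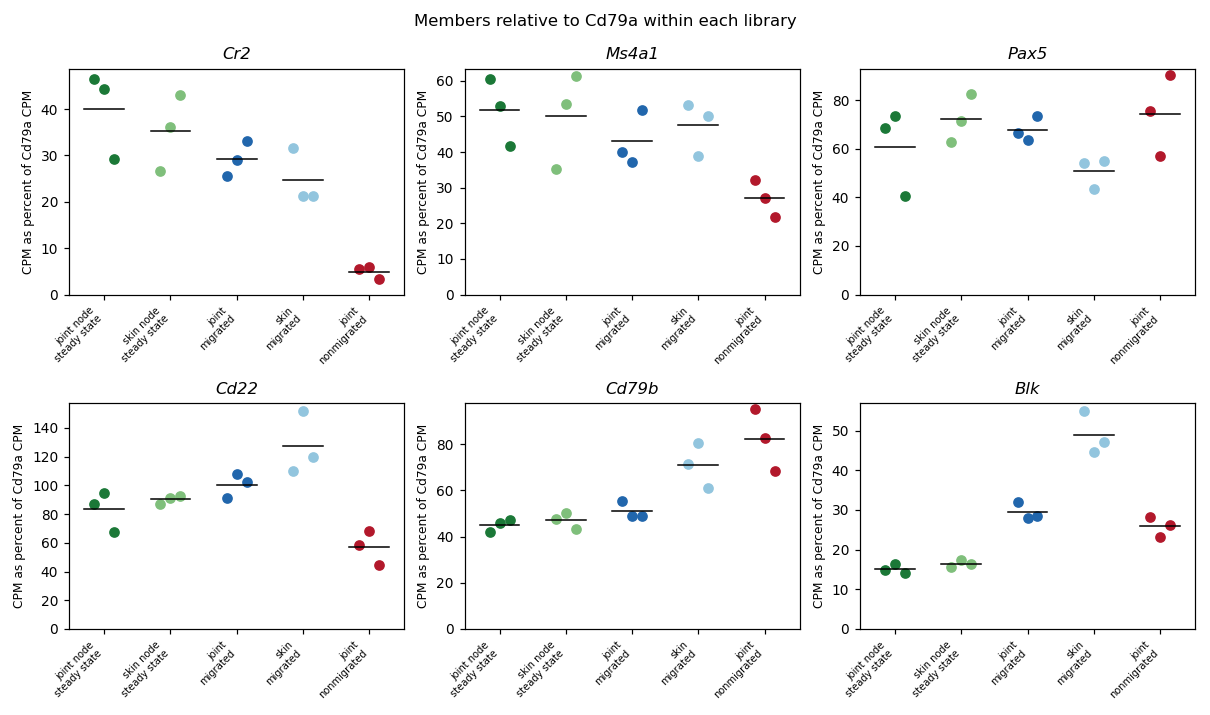
CPM of 6 genes as a percent of Cd79a CPM in the same library (y axis), for 5 groups (x axis), with a point per library and a bar at the mean; skin nonmigrated cells are left out. Cr2 in joint nonmigrated cells lies under 6% in all 3 libraries, below every library of the other groups.

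Transcripts of B cell precursors were present in the same joint nonmigrated libraries. Rag1, a recombinase gene of developing lymphocytes, was at 8.59, 4.98 and 46.5 CPM there, and Igll1, a surrogate light chain gene, at 5.28, 2.92 and 18.5 CPM. Vpreb1, its partner, was at 2.71, 1.86 and 10.2 CPM and Dntt, the terminal transferase gene, at 8.48, 9.93 and 29.0 CPM. Replicate 3 was the highest library for Rag1, Igll1, Vpreb1 and Dntt and also for Pax5, Cd79a, Cd79b, Blk, Cd22, Cr2 and Ms4a1, though not for Rasgrp3 or Btk, and it had the most neutrophil transcripts (22222 CPM, against 7043 and 13146). In joint migrated cells Rag1, Rag2, Vpreb1 and Igll1 had at most 3 counts in every library. In skin nonmigrated cells the same held for these and Vpreb3. Vpreb3 did not fall in this way in joint, with 4.13, 3.26 and 18.7 CPM in nonmigrated and 5.67, 3.53 and 4.48 CPM in migrated cells. It was higher still in the joint node at steady state, at 20.7, 21.5 and 28.4 CPM. Dntt was at 1.89, 2.10 and 2.55 CPM in joint migrated cells and at 6.53, 5.88 and 7.73 CPM in the skin node. Cd93, which myeloid cells also express, was at 298, 341 and 276 CPM in joint nonmigrated cells, lowest in replicate 3, and at 138, 105 and 281 CPM in skin nonmigrated cells. Among the 7 precursor genes, Cd93 included, 6 were called lower in joint migrated than in joint nonmigrated cells and 6 were called higher in joint than in skin nonmigrated cells. Of all genes, 18.4% were called lower in the first comparison and 5.45% higher in the second. Without replicate 3, the rise with migration in joint was 2.99 for Pax5, 2.94 for Cd79a and 3.16 for Blk on the log2 scale, and the part of the precursor genes in the levels of Pax5 and Cd79a was not tested. The joint node at steady state held Rag1 at 8.72, 5.23 and 4.53 CPM and the skin node at 2.24, 0.556 and 1.68 CPM.

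**Figure D5:**
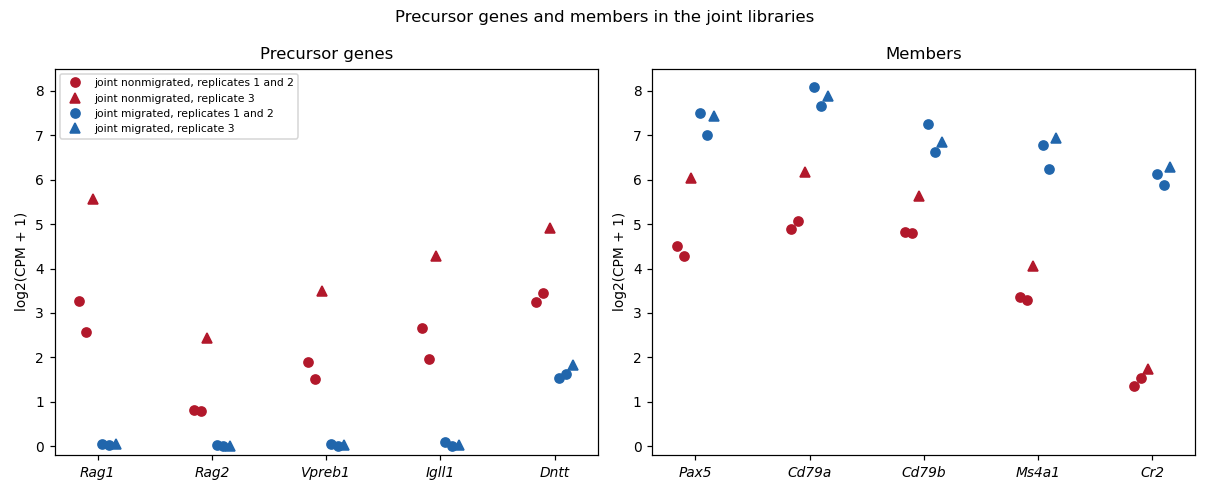
Level as log2(CPM + 1) (y axis) of 5 precursor genes (left) and 5 genes of the list (right) in the joint libraries, with triangles for replicate 3 of each group. Joint nonmigrated replicate 3 lies above the other 2 libraries of its group for every gene shown, and Rag1, Rag2, Vpreb1 and Igll1 lie at the floor in joint migrated cells.

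The rest of the receptor pathway was read through 6 lists that together hold 56 genes, the 9 included. In joint, 30 of 56 were called higher and 7 lower in migrated cells, and in skin 33 were higher and 6 lower. The shares of all genes were 16.0% higher and 18.4% lower in joint and 15.7% and 19.7% in skin. Transcription factors rose in 8 of 12 cases in joint and 10 of 12 in skin, with Foxo1 and Ikzf3 higher by 1.98 (SE 0.15) and 2.78 (SE 0.30) on the log2 scale in joint and Pou2af1, the coactivator of octamer factors, by 5.40 (SE 0.49) in skin. Mature B cell surface genes rose in 8 of 10 cases at each site, with Fcmr, an Fc receptor for IgM, higher by 3.73 (SE 0.36) in joint and 5.05 (SE 0.45) in skin. Of the proximal kinases and adaptors, 2 of 12 were higher and 5 lower in joint, where Lyn had a log2 fold change of -2.21 (SE 0.18) and Syk of -1.48 (SE 0.14), and 2 were higher and 4 lower in skin, where Syk stood at -2.15 (SE 0.15). These kinases, like Btk, are shared with myeloid cells. The T cell list was also higher in migrated cells, in 7 of 7 genes in joint and 5 of 7 in skin, with 0 lower. Its part in the rises of the pathway lists was not tested. Fcgr2b, the inhibitory Fc receptor of B cells and macrophages, was lower in migrated cells by -4.59 (SE 0.32) in joint and -4.70 (SE 0.32) in skin, against 6 of 10 inhibitory coreceptor and phosphatase genes that were higher at each site.

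Between the sites, 17 of 56 were higher in migrated cells of the joint than of the skin, among them H2-Ob (1.96, SE 0.27), Fcrl1 (2.30, SE 0.31) and Pou2f2 (1.02, SE 0.17), and 23 were higher and 2 lower in joint than in skin nonmigrated cells. The all-gene shares were 0.56% higher in the first and 5.45% higher and 8.86% lower in the second comparison. Against the steady-state node, 35 of 56 were lower and 2 higher in joint migrated cells and 32 were lower and 2 higher in skin migrated cells, where 7.31% of all genes were lower and 16.9% higher in joint and 15.0% and 21.5% in skin. The higher ones included Cd40, the costimulatory receptor that dendritic cells also carry, by 1.47 (SE 0.26) in joint and 2.21 (SE 0.27) in skin, and Dapp1, an adaptor, by 1.06 (SE 0.13) and 1.78 (SE 0.13). Bank1, a B cell scaffold protein gene, was lower by -2.45 (SE 0.17) in joint and -4.34 (SE 0.19) in skin. Between the steady-state nodes edgeR called 0 of 56, with 32 at an unadjusted p under 0.05, and the DESeq2 Wald test called 1. In the migration difference 4 were higher and 5 lower in joint than in skin, against 3.96% and 2.17% of all genes. In the steady-state difference 18 were higher and 1 lower, against 2.33% and 3.78%.

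Over the 18 libraries, Pearson's r of log2(CPM + 1) between pairs of the 8 genes without Btk ran from 0.913 to 0.995, highest for Cd79a with Pax5, and between Btk and each of the others from 0.128 to 0.254. The libraries share groups, so that these values describe the order of the 6 groups more than single libraries. Of 14791 other genes, those whose pattern was most like the mean of 7 B cell genes of the list were Tnfrsf13c, the BAFF receptor gene (r = 0.997), Ighd (0.996), Fcmr (0.995), Cacna1i (0.991), Fcer2a, which encodes CD23 (0.991), Fcrl1 (0.985), Ffar1 (0.984), Grk6 (0.982) and St6gal1 (0.982). Tnfrsf13c went from 128 to 163 CPM in the joint node at steady state to 0.18 to 0.78 CPM in skin nonmigrated cells. Ffar1 lies 3837 bases from Cd22 on chromosome 7, and whether its reads come from its own transcript was not tested. Grk6 stayed between 133 and 678 CPM in all groups, so that a like order did not mean a like range.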

How the data were processed

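Bulk RNA-Seq was measured in 18 libraries of sorted CD45+ leukocytes. The authors sequenced paired reads on a HiSeq instrument, trimmed them with Trim-Galore!, aligned them with TopHat2 to mm10 with Ensembl gene models and counted reads per gene with HTSeq at default settings; tool versions are not given in the sources used here. The deposited values are raw read counts. After 5 summary lines were removed, 49585 genes remained, of which 49326 matched GENCODE M21 for symbols and positions. Whether the library kit marks strand is not given in the sources used here.

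The test was the quasi-likelihood F test of edgeR 4.0.16 under R 4.3.3, after TMM scaling and a filterByExpr filter set to 10 counts, with group as the only factor. The 12 inflamed libraries were fitted together (16777 genes) and the 12 lymph node libraries together (17107 genes). P values were adjusted by Benjamini-Hochberg over all genes of a fit, and calls needed an adjusted p under 0.05 and a log2 change of more than 1 in size, as in the study's methods. SE was taken as the size of the log2 change over the root of its F statistic. DESeq2 1.42.0, which the authors used, was an alternative, as were its size factors in edgeR, no filter, an adjusted p under 0.001, a replicate block, other sets of libraries in the fit and leaving out each library. Scripts were tested on simulated data. Libraries of a group differed far beyond counting noise (chi-square over its degrees of freedom, 16.2 to 129.6), so that no library was counted as a copy of another. The study names the libraries of the inflamed groups biological replicates from pooled mice, so p values measure the spread between pools. How the steady-state libraries were pooled is not given in the sources used here. Floors (3 counts) cover counting error only, and intervals come from the fit.

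The 9 genes and the lists were chosen with earlier results of these data known. From each list and comparison at most 2 called genes per direction with the smallest adjusted p and no overlap between groups were named, besides the 9, listed markers and the 10 genes most like them; Ighm, Ighd, Ptprc and Trdc fall outside this rule, and 1 gene within the rule is left out here. Tables were made with Python 3.11.15 and pandas 2.3.3, and figures with matplotlib 3.10.9.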

Additional observations from a re-analysis of the deposited data

Results flagged for a closer look

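These results drew attention because the test of the difference between the sites passed the threshold. The change from nonmigrated to migrated cells differed between joint and skin for Pax5 (-4.78 on the log2 scale, joint minus skin) and Cd79a (-2.93). For both genes the steps rest on very few counts in skin nonmigrated cells, which were 5, 1 and 4 for Pax5 and 9, 17 and 35 for Cd79a.

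The change from the steady-state node to migrated cells differed between joint and skin for 8 genes. On the log2 scale, joint minus skin, it was 2.50 for Pax5, 1.88 for Cr2, 1.85 for Cd79a, 1.67 for Cd22, 1.59 for Ms4a1, 1.49 for Cd79b, 1.25 for Blk and 1.02 for Rasgrp3. All 3 joint migrated libraries lay above all 3 skin migrated libraries for each of these genes, and the 2 steady-state nodes differed by 0.22 to 0.68. The joint node at steady state also had neutrophil transcripts (509.8 to 950.1 CPM) that the skin node had at 12 to 20.4 CPM, and their part in the difference was not tested. Joint and skin baselines also differ in their titles (PBS and KG against naive), and the skin migrated libraries belong to the set of inflamed skin libraries that differs in depth. Neither can be told apart from the site.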

How the results depend on the processing

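Of 1143 recomputed log2 fold changes of the 9 genes, 1086 kept their direction and side of the threshold, 43 lost the call, 11 gained it and 3 changed sign, none of them called: Blk in joint over skin nonmigrated cells without joint nonmigrated replicate 3 (range over libraries left out -0.221 to 0.651), Btk in the migration difference without skin nonmigrated replicate 3 (-0.0626 to 0.34) and Btk in the steady-state difference without joint migrated replicate 3 (-0.0039 to 0.238). Of 254 recomputed counts, 222 stayed within 1.5 times. At an adjusted p under 0.001 the called genes of the list fell to 0 in joint over skin migrated cells and in the migration difference and to 2 in the steady-state difference, and the pathway genes fell to 11 in joint over skin nonmigrated cells, 0 in migrated cells, 1 in the migration difference and 7 in the steady-state difference. Calls among all genes at that threshold were 192 higher and 319 lower in joint over skin nonmigrated cells and 0 and 0 in migrated cells. They were 11 and 9 in the migration difference and 33 and 119 in the steady-state difference. With 1 library left out, joint over skin migrated cells gave 1 to 5 genes of the list and 3 to 10 pathway genes, and the migration difference gave 2 to 4 and 5 to 18, the highest without skin nonmigrated replicate 3. Among all genes, the refits of joint over skin migrated cells called 21 to 42 higher, against 94. Without skin nonmigrated replicate 3 the migration difference called 1504 of 17931 genes higher and 1106 lower, against 665 and 364 of 16777. Leaving out 1 library gave 0 to 1 pathway genes between the steady-state nodes. That count was 1 also with DESeq2 size factors, without the filter, by the DESeq2 Wald test and in the fit of all 18 libraries, against 0. The fit of all 18 libraries called 5 of the list and 11 pathway genes in the steady-state difference. Among all genes it called 187 higher and 479 lower of 18156, against 399 and 646 of 17107 in the main fit. The causes were not tested.

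The replicate number was checked as a pairing of tissue and node. The deviations of same-numbered libraries correlated at 0.021 to 0.254 in joint and 0.073 to 0.173 in skin, and each migrated library correlated best with its own number at both sites (3 of 3), a hint from the data only. Against the steady-state nodes the values were -0.185 to -0.021. Because the labels do not say whether same-numbered libraries share mice, the numbers were not taken as pairs. With a replicate block within each site 9, 9, 7 and 7 genes of the list were called in the migration and site comparisons and 2 and 8 in the migration and steady-state differences, and the pathway genes between the steady-state nodes went from 0 to 1. Depth limits Pax5 and Cr2 in skin nonmigrated cells, with at most 6 counts a library.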

Other observations

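The heavy chain genes of the receptor itself, chosen after their values were seen, followed different orders. Ighd, the chain of mature naive B cells, was at 1083 to 1613 CPM in the steady-state nodes, 219.7 to 307 CPM in joint migrated, 32.6 to 53.5 CPM in skin migrated, 9.55 to 23.4 CPM in joint nonmigrated and 1.14 to 2.10 CPM in skin nonmigrated cells. Ighm was instead at 4586, 3142 and 4861 CPM in skin migrated and 2398, 2305 and 3528 CPM in joint migrated cells, against 1793 to 2488 CPM in the steady-state nodes. The 3 skin migrated libraries were therefore above all steady-state libraries for Ighm while they were below them for Ighd, Cd79a and Pax5. The plasma cell list (6 genes, Jchain and Xbp1 among them) summed to 422 to 687 CPM in skin migrated, 356 to 582 CPM in joint migrated, 485 to 573 CPM in joint nonmigrated, 378 to 576 CPM in skin nonmigrated and 90.0 to 168 CPM in the steady-state libraries. Of its 6 genes 5 were called higher than at steady state in skin migrated and 4 in joint migrated cells, where 21.5% and 16.9% of all genes were called higher. Secreted and membrane forms of Ighm cannot be told apart in counts per gene.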
